A study of Sus scrofa with 14 samples.

Results

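The antibody transport genes PIGR, JCHAIN and FCGRT were followed through the mammary gland and the milk of sows. They were the 3 genes of that name among the 30071 gene identifiers of the matrices, and all 3 were measured in every library of nuclei, milk cells and tissue spots. In the tissue sections FCGRT was matched by its identifier. On the pig genome Sscrofa11.1, in the RefSeq annotation, PIGR (ENSSSCG00000015657) is the gene on the minus strand at chr9:67553094-67574698, JCHAIN (ENSSSCG00000035379) is the gene on the minus strand at chr8:67439405-67448628, and FCGRT (ENSSSCG00000003187) is the gene on the plus strand at chr6:54581103-54599193.

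PIGR encodes the polymeric immunoglobulin receptor, which takes up IgA and IgM polymers at the basal side of an epithelial cell and carries them to the lumen, where its outer part is cut off and leaves with the antibody as secretory component. JCHAIN encodes the joining chain, a small protein made by antibody-secreting plasma cells that links IgA and IgM units into the polymers the receptor binds. FCGRT encodes the heavy chain of the neonatal Fc receptor, which pairs with beta-2-microglobulin, binds IgG and albumin in acidic endosomes and returns them to the cell surface or across the cell. In the pig the placenta passes hardly any antibody, so that the newborn depends on colostrum for IgG and on later milk for IgA.

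The study sampled glands of multiparous sows in the second breeding cycle at 5 stages and sequenced nuclei from frozen tissue, cells from milk and spots of tissue sections. The gland libraries came from 2 sows each at day 90 of gestation (G90), day 0 of lactation (L0, the time of colostrum), day 20 of lactation (L20), and 2 and 7 days after natural involution (PI2 and PI7). One sow gave the colostrum cells at L0 and 1 the mature milk cells at L20, and 1 section each was made at G90 and at PI2. Each sow gave tissue of one place in the gland, no sow was treated, and milk samples carry the label of mammary gland although they hold cells shed into milk. The p-values set differences against the spread between the sows sampled for the gland, of which there were 2 a stage.

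Of 128233 gland barcodes 126833 were kept, with 18700704 to 53161349 unique molecule counts (UMIs) per library and medians of 1382 to 2496 UMIs per nucleus. In milk 32085 of 40990 barcodes were kept, with 80995806 UMIs at L0 and 42948881 at L20, and the sections held 4721 spots at G90 and 2248 at PI2 with 42815421 and 17906403 UMIs. Levels are given as CPM, the UMIs of a gene scaled to 1000000 UMIs of its library or class, and those of different genes are not compared, since counts from transcript ends depend on each gene's sequence. Nuclei were put in a class where at least 2 of that class's 12 marker genes were seen and no other class had as many. This gave 69903 luminal epithelial nuclei and 370 plasma cell nuclei, and it left 17.0% of nuclei without a class. None of the 3 genes was a marker. Of the markers measured, 11 of 11 were highest in the luminal class, 11 of 11 in macrophages and 9 of 10 in plasma cells. This is no independent check, since the same markers placed the nuclei. No such count was made for the neutrophil, B cell and adipocyte classes.

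Some libraries stood apart. L20 replicate 2 held 9.07% luminal nuclei, against 26.7% to 82.6% in the other glands, and both L20 glands had low casein counts for a lactating gland (0.0721% and 0.0106% of UMIs, against 1.06% and 0.774% at L0, and 0.0908% in PI2 replicate 2). Milk protein transcripts also occurred in nuclei of non-epithelial classes, at 3.01% to 47.6% of their luminal level by library. Free RNA, doublets and misplaced nuclei were not told apart. Gland libraries shared 52 to 205 cell barcodes in pairs, and the milk libraries shared 175, at most 1.23% of the smaller library. Fewer cells of a type and less RNA per cell cannot be told apart in sums over a whole gland or section.

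PIGR was highest in the luminal epithelium of the gland. Its level in luminal epithelial nuclei was 248 ± 119 CPM (SD, n = 10 sows), lowest at 76.4 CPM, with a median of 249 CPM and highest at 406 CPM. Luminal nuclei held 88.4% of all PIGR UMIs of the glands and 65.9% of all UMIs. Next in the order stood myoepithelial nuclei, the contractile basal layer, with 111 ± 75.9 CPM (n = 10). Below them, T and NK cells had 97.2 ± 69.1 CPM (n = 10), plasma cells 84.9 ± 62.1 CPM (n = 7), macrophages 84.3 ± 67.2 CPM (n = 10) and blood endothelium 81.1 ± 56.8 CPM (n = 10). Fibroblasts, lymphatic endothelium and mural cells ended the order at 79.1 ± 64.8, 73.8 ± 48.5 and 52.7 ± 47.9 CPM (n = 10, 10 and 6). In the 6 sows that had both, the mean log2(CPM + 10) was 5.64 in mural cells and 5.55 in lymphatic endothelium.

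Within sows the luminal level of PIGR exceeded that of each of the 8 other classes. The mean within-sow difference on the log2(CPM + 10) scale ran from 1.29 ± 0.84 (SD) over myoepithelial nuclei to 1.99 ± 0.90 over mural nuclei. Luminal nuclei were higher in 10 of 10 sows against 5 classes, with an adjusted p of 0.00586 in each by an exact two-sided sign-flip permutation test (Benjamini-Hochberg over 24 tests). Against macrophages they were higher in 9 of 10 sows (exact permutation, adjusted p = 0.0104), against mural cells in 6 of 6 and against plasma cells in 6 of 7 (both adjusted p = 0.0441). Without L20 replicate 2 the comparison with plasma cells kept 6 sows and had an adjusted p of 0.0875 (exact permutation). The exact test of neighbours in the order separated luminal from myoepithelial nuclei (adjusted p = 0.0469 over 24 neighbour tests) and no later pair (adjusted p of 0.813 or more).

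Outside the epithelium PIGR and casein counts both varied by library. In L0 replicate 1 it stood at 221 CPM in luminal nuclei, 228 CPM in macrophages and 208 CPM in fibroblasts, so that the luminal class did not lead there, and caseins of non-epithelial nuclei were at 36.0% of their luminal level. In L20 replicate 2 it was 101 CPM in luminal nuclei, 8.19 CPM in macrophages and 9.08 CPM in fibroblasts, with caseins at 3.01%. Across libraries the PIGR level in gated non-epithelial nuclei was 8.83% to 73.7% of the luminal level. This percentage was above that of caseins in every library but L20 replicate 1 (41.9% and 42.1%) and PI7 replicate 1 (11.5% and 12.2%). The part of free RNA in the lower levels was not tested.

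**Figure D1:**
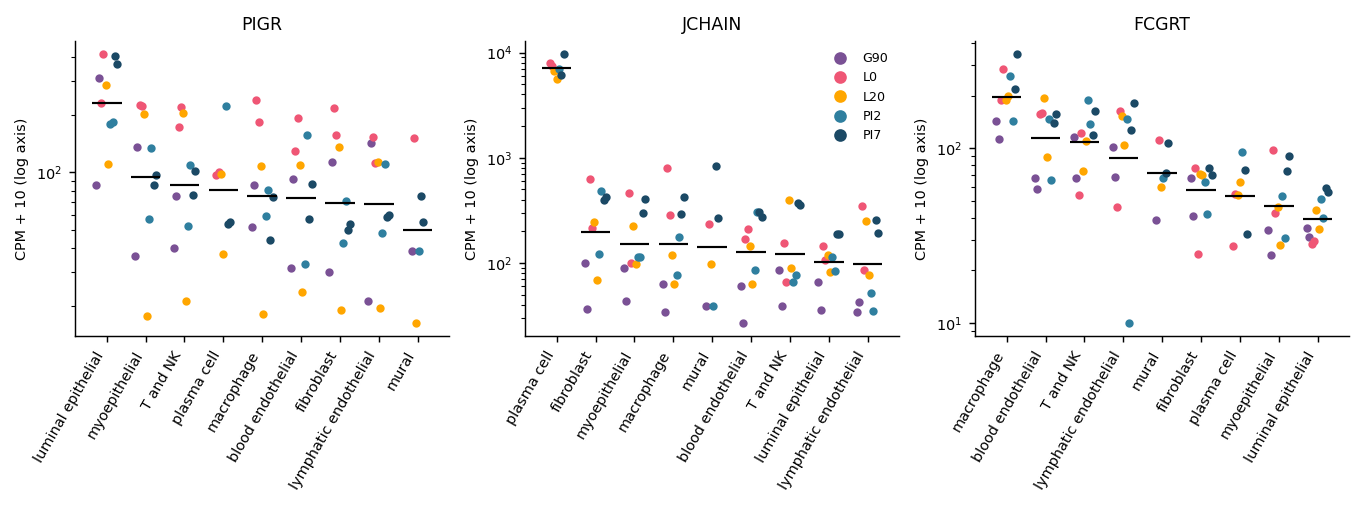
Level of PIGR, JCHAIN and FCGRT in CPM (log axis, shifted by a pseudocount of 10) by cell class in gland nuclei, with 1 point per sow and a bar at the mean over sows. Luminal nuclei lead for PIGR (76.4 to 406 CPM), the plasma cell class stands apart for JCHAIN (5556 to 9647 CPM), and macrophages lead for FCGRT (104 to 336 CPM).

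Over the whole gland the PIGR levels of the sows of a stage lay far apart at G90 and L20. The 2 sows had 61.7 and 288 CPM at G90, 219 and 395 CPM at L0, 259 and 25.6 CPM at L20, 129 and 168 CPM at PI2, and 195 and 251 CPM at PI7. The lowest value belonged to the L20 gland with few luminal nuclei. In luminal nuclei alone the values were 76.4 and 301 CPM at G90, 221 and 406 CPM at L0, 277 and 101 CPM at L20, 169 and 174 CPM at PI2, and 397 and 360 CPM at PI7. Both PI7 glands lay above both PI2 glands there, and every other pair of adjacent stages overlapped.

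No stage change of PIGR passed the test. The test was edgeR's quasi-likelihood test on counts summed per sow, with all 5 stages in 1 fit and Benjamini-Hochberg adjustment over all genes. Over all nuclei the log2 fold change was 1.02 (SE 1.06) from G90 to L0 (edgeR adjusted p = 0.935) and -1.37 (SE 1.06) from L0 to L20 (edgeR adjusted p = 0.611). In luminal nuclei the largest size was -1.04 (SE 0.77), from L0 to L20 (edgeR adjusted p = 0.620), and the change from PI2 to PI7 was 0.89 (SE 0.77, edgeR adjusted p = 0.9999). The fit called 0 of 22695 genes over all nuclei (0%) in each of the 4 adjacent contrasts. At an unadjusted p under 0.05 it had 1652, 2912, 817 and 464 genes, and DESeq2 called 397, 1157, 25 and 19 (2.17%, 6.32%, 0.144% and 0.118% of genes tested). In luminal nuclei it called 1 of 19786 genes (0.00505%) from G90 to L0, which was FOXP2, a transcription factor named here after its value was seen (log2 fold change 4.59, SE 0.47, edgeR adjusted p = 0.0320), and 0 (0%) in the other contrasts. There 2269, 2584, 635 and 540 genes had an unadjusted p under 0.05, and DESeq2 called 840, 976, 8 and 21 (4.91%, 5.71%, 0.0404% and 0.138%). The edgeR call of FOXP2 was lost when any 1 gland of G90, L0, L20 or PI7 was left out. Neither DESeq2 nor edgeR fits of only the 2 stages compared called PIGR in any contrast. From G90 to L0 those 2-stage fits called 2.01% of genes over all nuclei and 5.17% in luminal nuclei, from L0 to L20 0% and 0.0113%, and in the later adjacent contrasts 0%.

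**Figure D2:**
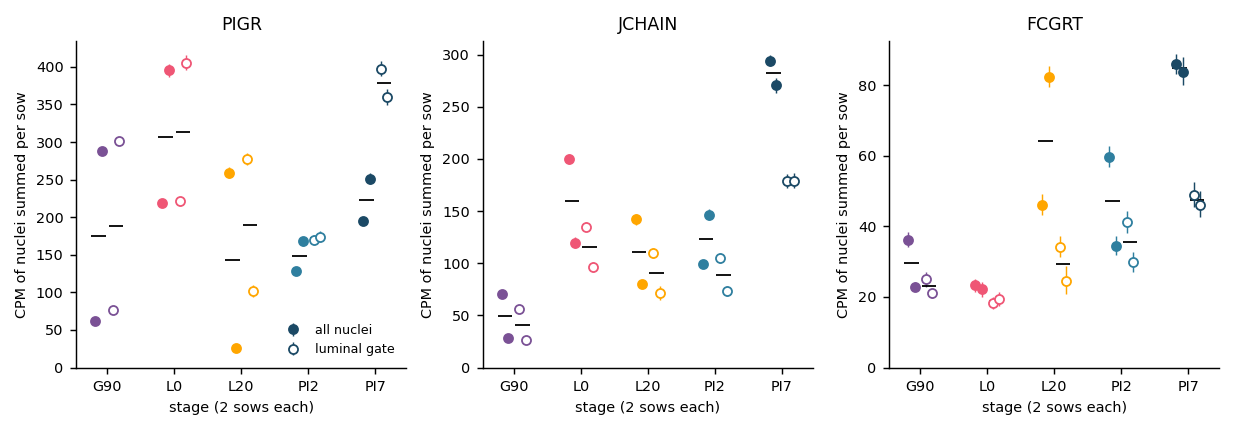
Level in CPM of the 3 genes at the 5 stages, over all nuclei and in luminal nuclei, with 1 point per sow (n = 2 a stage). JCHAIN is lowest at G90 (27.9 and 70.9 CPM over all nuclei) and highest at PI7 (294 and 270 CPM), while the PIGR values of the 2 sows lie far apart at G90 and L20.

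Inside the luminal class PIGR differed between its kinds of nuclei. Hormone-sensing nuclei, which carry steroid receptor markers, secretory nuclei with milk gene markers and progenitor nuclei were told apart by 8 markers each. Hormone-sensing nuclei were lower than secretory nuclei in 8 of 8 sows, by 1.56 ± 0.96 (SD) on the log2(CPM + 10) scale (exact two-sided sign-flip permutation test, adjusted p = 0.0234 over 9 tests). The L0 glands, with 0 and 4 hormone-sensing nuclei, did not enter any comparison of these nuclei. Hormone-sensing against progenitor nuclei gave -0.90 ± 1.23 (n = 8, exact permutation, adjusted p = 0.110), and progenitor against secretory nuclei gave -0.53 ± 1.05 (n = 9, exact permutation, adjusted p = 0.168). With at least 50 nuclei of each kind 6 sows were left, and the difference of hormone-sensing and secretory nuclei was -1.73 (exact permutation, adjusted p = 0.0703).

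The secretory nuclei of PI7 were few and rich in PIGR. They numbered 93 and 128, and their PIGR stood at 970 and 528 CPM, against 144 and 225 CPM in hormone-sensing nuclei of the same glands. How far a few nuclei carried these sums was not tested. At G90 the secretory nuclei had 62.8 and 303 CPM, at L20 492 and 243 CPM, and at PI2 185 and 247 CPM. At L0 8718 of 8941 and 6775 of 7430 luminal nuclei were secretory, and all luminal nuclei together had 221 and 406 CPM. The secretory level of G90 replicate 1, the lowest, was under its own progenitor level of 136 CPM. In 4 of 9 sows progenitor nuclei were higher than secretory nuclei, G90 replicate 1 among them. At PI2 replicate 2 the hormone-sensing level of 227 CPM, from 27 nuclei, came near the secretory level.

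Most luminal nuclei had no PIGR UMI. One was seen in 16.1% to 44.8% of luminal nuclei by library, and after thinning each nucleus to 1000 UMIs in 6.21% to 27.1%. The thinned share was 1.22% to 23.5% in T and NK cells, 0.652% to 16.9% in myoepithelial nuclei and 0% to 15.0% in plasma cells. In macrophages it was 0.945% to 14.7%, and in the other classes it reached 14.0% at most. The median over glands was 17.2% in luminal nuclei, 7.47% in myoepithelial nuclei and 6.01% in T and NK cells. Nuclei with at least 10 PIGR UMIs made up 0.123% of luminal nuclei in G90 replicate 1 and 2.85% in PI7 replicate 1, and the most in 1 nucleus were 92 and 122, both at PI7. The 5% of luminal nuclei with the most PIGR held 30.3% to 57.8% of the luminal PIGR UMIs by library, and 53.4% and 50.1% at PI7.

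**Figure D3:**
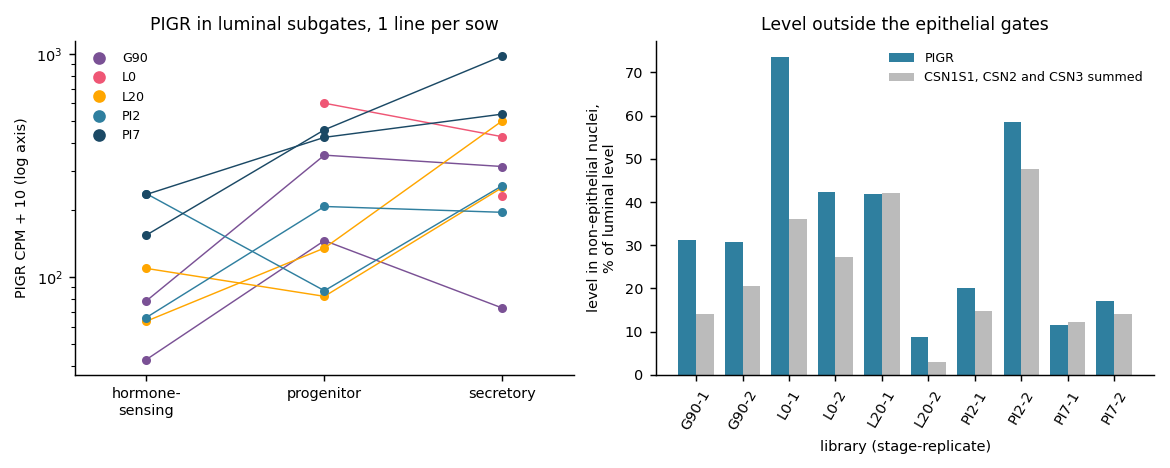
PIGR level in CPM in hormone-sensing, progenitor and secretory luminal nuclei, with 1 point per sow that had at least 20 such nuclei. Hormone-sensing nuclei lie below secretory nuclei in each of the 8 sows that have both, and the 2 PI7 glands have the highest secretory values (970 and 528 CPM).

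JCHAIN was by far highest in the plasma cell class. The 7 sows with at least 20 plasma cell nuclei had 5556 to 9647 CPM, with a mean of 7176 ± 1336 CPM (SD, n = 7). The 3 sows with 4 to 19 plasma nuclei had 8733 and 1470 CPM at G90 and 4948 CPM at PI2. By mean CPM the other classes followed at 262 ± 200 CPM in fibroblasts, 241 ± 299 CPM in mural cells (n = 6), 222 ± 234 CPM in macrophages and 186 ± 148 CPM in myoepithelial nuclei (n = 10 otherwise). Lower still were T and NK cells at 160 ± 145 CPM, blood endothelium at 155 ± 105 CPM, lymphatic endothelium at 128 ± 115 CPM and luminal nuclei at 103 ± 50.1 CPM.

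The plasma cell level exceeded that of each class compared in 7 of 7 sows, by 4.59 to 5.84 on the log2(CPM + 10) scale. Each comparison had the smallest p that 7 sows allow, 0.0156 (exact two-sided sign-flip permutation test, adjusted p = 0.0167 over 15 tests chosen after the order was seen). Mural cells shared fewer than 6 sows with plasma cells and were not compared. In the test of neighbours in the order, plasma cells against fibroblasts had an adjusted p of 0.125 (exact permutation, n = 7, 24 tests). Luminal nuclei were lower in JCHAIN than fibroblasts by 0.94 ± 0.88 (SD, exact permutation, n = 10, adjusted p = 0.0195) and than myoepithelial nuclei by 0.57 ± 0.54 (exact permutation, n = 10, adjusted p = 0.0128). Each was seen in 9 of 10 sows, and that with myoepithelial nuclei had an adjusted p of 0.0568 when at least 3 markers were asked for (exact permutation). Inside the luminal class JCHAIN was lower in hormone-sensing than in progenitor nuclei by 0.53 ± 0.28 and than in secretory nuclei by 0.69 ± 0.36, each in 8 of 8 sows (exact permutation, adjusted p = 0.0234 in both). With at least 50 nuclei of each kind 6 sows were left and both adjusted p-values were 0.0703 (exact permutation).

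JCHAIN outside the plasma cell class was not at 0. In nuclei of all classes but B and plasma cells it ranged from 26.0 CPM in G90 replicate 2 to 256 CPM in PI7 replicate 1. In L0 replicate 1 macrophages had 782 CPM and fibroblasts 615 CPM, against 135 CPM in luminal nuclei. The plasma cell class held 8.53% of JCHAIN UMIs in 0.292% of nuclei and 0.168% of all UMIs. Luminal nuclei held 44.1% in 65.9% of all UMIs, and nuclei without a class 17.8% in 9.43%. How far free RNA or missed plasma cells enter these levels was not tested.

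Nuclei with at least 5 JCHAIN UMIs, a threshold chosen after the data were seen, numbered 1275 of 126833 (1.01%) and held 34.8% of the JCHAIN UMIs. A plasma cell marker was seen in 53.3% of them, against 9.18% of nuclei with no JCHAIN UMI, at median depths of 1668 and 1776 UMIs. Of these nuclei 226 were in the plasma cell class, 306 in the luminal class and 313 in no class. Their number ran from 10 in G90 replicate 2 to 485 in PI7 replicate 1, or from 0.0535% to 2.91% of nuclei.

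Over the whole gland JCHAIN was lowest at G90 and highest at PI7. The values were 70.9 and 27.9 CPM at G90, 199.8 and 119.8 CPM at L0, 142 and 80.4 CPM at L20, 99.0 and 147 CPM at PI2, and 294 and 270 CPM at PI7. Both G90 values lay below all others, and both PI7 values above. The luminal class showed the same order at its ends, with 56.5 and 25.9 CPM at G90 and 179 and 179 CPM at PI7, and 71.3 to 135 CPM in between.

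The higher level of JCHAIN after G90 missed the threshold of the fit over 5 stages. From G90 to L0 the log2 fold change was 2.19 (SE 0.60, unadjusted p = 0.00373, edgeR adjusted p = 0.363) over all nuclei and 1.92 (SE 0.47, edgeR adjusted p = 0.140) in luminal nuclei. DESeq2 called this difference, with adjusted p-values of 0.0340 and 0.00968, as it called 2.17% and 4.91% of all genes tested. An edgeR fit of the 2 stages alone also called the difference, with adjusted p-values of 0.0446 and 0.0332, among 2.01% and 5.17% of genes. From G90 to PI7, a contrast added after the data were seen, the log2 fold change was 2.43 (SE 0.61, edgeR adjusted p = 0.352) over all nuclei and 2.04 (SE 0.47, edgeR adjusted p = 0.126) in luminal nuclei. That fit called 0 genes (0%) in either set, with 1706 and 2325 at an unadjusted p under 0.05, while DESeq2 called 395 and 888 genes (2.33% and 5.31%) and gave JCHAIN adjusted p-values of 0.0167 and 0.00465. The fit of these 2 stages alone called 0.145% and 1.69% of genes and not JCHAIN. Scaling by library size alone in place of TMM moved the median log2 fold change of all genes from G90 to L0 from -0.17 to -0.58, and that of JCHAIN to 1.69. Plasma cell nuclei made up 0.166% and 0.0856% of nuclei at G90 and 0.432% and 0.457% at PI7. In lactation their share was 0.594% and 0.213% (L0) and 0.180% and 0.231% (L20). The lowest and the highest share, 0.0321% and 0.729%, were both found at PI2, in glands with 99.0 and 147 CPM of JCHAIN.

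FCGRT was highest in macrophages and lowest in luminal epithelial nuclei. Macrophages had 199 ± 71.5 CPM (SD, n = 10), lowest at 104 CPM, with a median of 185 CPM and highest at 336 CPM. Blood endothelium followed at 114 ± 48.5 CPM, T and NK cells at 105 ± 42.1 CPM and lymphatic endothelium at 100.2 ± 55.1 CPM. Mural cells (66.3 ± 28.3 CPM, n = 6), fibroblasts (50.6 ± 18.1 CPM), plasma cells (47.7 ± 23.6 CPM, n = 7) and myoepithelial nuclei (42.1 ± 26.4 CPM) were lower. Luminal nuclei came last at 30.8 ± 11.3 CPM, between 18.2 and 48.9 CPM.

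Macrophages exceeded each other class, by 0.80 over blood endothelium to 2.33 over luminal nuclei on the log2(CPM + 10) scale. The adjusted p-values of these exact two-sided sign-flip permutation tests, chosen after the order was seen, were 0.00586 to 0.0313. Macrophages were higher in every sow of each comparison except that with blood endothelium, where it was 9 of 10 (exact permutation, adjusted p = 0.00977). Among the FCGRT neighbours in the order only this step passed (exact permutation, n = 10, adjusted p = 0.0469). Luminal nuclei were lower than blood endothelium by 1.53 ± 0.63 and than T and NK cells by 1.45 ± 0.45 in 10 of 10 sows (exact permutation, adjusted p = 0.00586 in each). They were lower than fibroblasts by 0.54 ± 0.50 (exact permutation, n = 10, adjusted p = 0.0128), lymphatic endothelium by 1.16 ± 1.203 (exact permutation, n = 10, adjusted p = 0.0402) and mural cells by 0.76 ± 0.67 (exact permutation, n = 6, adjusted p = 0.0441). Against myoepithelial nuclei (-0.24 ± 0.66) and plasma cells (-0.41 ± 0.69) the exact permutation test gave adjusted p-values of 0.332 and 0.197. With a stricter filter on nuclei (500 genes or more, mitochondrial share up to 5%) the comparisons with fibroblasts and lymphatic endothelium had adjusted p-values of 0.138 and 0.0974, and that with lymphatic endothelium had 0.0645 without L20 replicate 2 and 0.195 with a pseudocount of 1 (exact permutation). The lymphatic endothelium of PI2 replicate 2 had no FCGRT UMI in its 29 nuclei (95% exact Poisson upper limit 92.3 CPM). Macrophages held 16.3% of FCGRT UMIs in 4.04% of all UMIs (10.4% in 2.2% without L20 replicate 2), and luminal nuclei held 37.3% in 65.9%. Inside the luminal class, progenitor nuclei had more FCGRT than secretory nuclei by 0.17 ± 0.22 in 8 of 9 sows (exact permutation, adjusted p = 0.0439), a call that 5 of the alternatives ended. Hormone-sensing nuclei had more than progenitor nuclei by 0.43 ± 0.66 and than secretory nuclei by 0.55 ± 0.76, each in 6 of 8 sows. Neither difference passed (exact permutation, adjusted p = 0.114 and 0.110).

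Over the whole gland FCGRT had its highest values in PI7 and in the L20 gland poor in luminal nuclei. The values were 36.3 and 22.9 CPM at G90, 23.3 and 22.1 CPM at L0, 46.1 and 82.4 CPM at L20, 59.7 and 34.5 CPM at PI2, and 86.0 and 83.9 CPM at PI7. In luminal nuclei they were 24.96 and 21.0, 18.2 and 19.3, 34.2 and 24.6, 41.2 and 29.8, and 48.9 and 46.2 CPM in the same order. Both L20 values exceeded both L0 values in each set, and both PI7 values exceeded both PI2 values.

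None of these stage differences of FCGRT passed the test. From L0 to L20 the log2 fold change was 0.92 (SE 0.46, edgeR adjusted p = 0.440) over all nuclei and 0.29 (SE 0.43, edgeR adjusted p = 0.842) in luminal nuclei, where it was -0.29 without L20 replicate 1. From G90 to PI7 it was 1.38 (SE 0.47, edgeR adjusted p = 0.509) over all nuclei and 0.90 (SE 0.44, edgeR adjusted p = 0.462) in luminal nuclei. From G90 to L0 the values were 0.05 and 0.07 with TMM and -0.38 and -0.30 with library size alone, so that the sign depended on the scaling. Macrophage nuclei numbered 2109 of 15148 in L20 replicate 2 and 41 of 9392 in L0 replicate 2, the glands with 82.4 and 22.1 CPM of FCGRT. At PI2 they numbered 151 of 12456 and 137 of 9332, where FCGRT was 59.7 and 34.5 CPM. The part of macrophages in the whole-gland level was not tested.

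For none of the 3 genes did the difference between the 4 glands labelled as lactating and the 6 others pass the test. The differences of mean log2(CPM + 10), lactating minus other, were -0.02 and 0.06 for PIGR over all nuclei and in luminal nuclei, 0.12 and 0.20 for JCHAIN, and -0.28 and -0.39 for FCGRT. The adjusted p-values of the exact two-sided permutation test over 6 tests were 0.714 or more, where the smallest unadjusted p that the design allows was 0.00476. Without both L20 glands, whose casein counts were low, the differences of L0 from the 6 others were 0.80 and 0.46 for PIGR, 0.36 and 0.36 for JCHAIN, and -0.85 and -0.62 for FCGRT. Their adjusted p-values in the exact permutation test were 0.5 or more, and the smallest unadjusted p was then 0.0357.

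In milk each of the 3 genes was highest in the same class as in the gland, at 1 sample per stage and with no test. PIGR in luminal epithelial cells was 1599 CPM (95% exact Poisson interval 1588 to 1610) at L0 and 2417 CPM (2385 to 2450) at L20. Macrophages had 58.0 CPM (49.9 to 67.2) and 8.09 CPM (6.66 to 9.74), and neutrophils 218 CPM (211 to 224) and 150.2 CPM (143 to 157). The neutrophil PIGR lay in few barcodes, as 12.4% of neutrophils at L0 and 2.92% at L20 had a UMI. At least 10 UMIs were seen in 80 of 12521 and 21 of 8279, and the most in 1 were 79 and 272. Intervals here and below cover counting error only. Luminal cells held 89.4% of the PIGR UMIs of milk and made up 15.4% of cells at L0 and 6.89% at L20. Of the UMIs of all genes they held 52257613 of 80995806 at L0 and 8617815 of 42948881 at L20. Over all cells PIGR was 1142 CPM at L0 and 566 CPM at L20.

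The share of luminal milk cells with a PIGR UMI went the other way from their CPM. It was 93.2% (95% exact binomial interval 92.2% to 94.1%) at L0 and 53.7% (50.6% to 56.8%) at L20, with median depths of 17766 and 2799 UMIs per cell. Thinned to 1000 UMIs, with 2685 and 940 cells deep enough, the shares were 69.5% and 43.4%. The median luminal cell had 25 PIGR UMIs at L0 and 1 at L20, and the most in 1 cell were 212 and 348. In macrophages, a class that should lack the gene, 25% and 5.84% of cells had a PIGR UMI at median depths of 3428 and 5171 UMIs. After thinning 5.40% and 1.08% of macrophages had one. The thinned shares were higher in neutrophils (9.43% and 2.34%) and in T and NK cells (7.21% and 1.48%). The 5% of luminal cells with the most PIGR held 16.5% of the PIGR UMIs of luminal cells at L0 and 49.5% at L20. Since the share and the CPM order the stages in opposite ways, no order of the stages is read from either.

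A few cells carried most of the JCHAIN of milk. The 51 cells of the plasma cell class held 71.7% of the JCHAIN UMIs (61.8% at L0 and 93.7% at L20) in 0.159% of the cells, at 70082 CPM (69228 to 70944) in 19 cells at L0 and 74643 CPM (73538 to 75760) in 32 cells at L20. A JCHAIN UMI was seen in 94.7% of these cells at L0 (exact binomial interval 74.0% to 99.9%) and in 50% at L20 (31.9% to 68.1%). The 80 cells with at least 5 JCHAIN UMIs held 94.8% of the JCHAIN UMIs, and 1 cell at L0 held 4753. Neutrophils, at 387 CPM (378 to 396) and 25.6 CPM (22.9 to 28.5), owed most of the L0 value to few barcodes, since 6 of 12521 had at least 10 JCHAIN UMIs and 1 of them had 2434. Luminal cells had 32.8 CPM (31.3 to 34.4) and 68.2 CPM (62.8 to 74.0), and 1 luminal cell at L20 held 505 of the 588 JCHAIN UMIs there. Macrophages had 23.2 CPM (18.2 to 29.2) and 8.16 CPM (6.72 to 9.82).

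FCGRT in milk was highest in macrophages at both stages. It was 786 CPM (755 to 818) at L0 and 768 CPM (753 to 783) at L20, and the intervals overlap. T and NK cells had 91.1 CPM (67.6 to 120.0) and 91.9 CPM (79.4 to 106), neutrophils 110.0 CPM (105 to 115) and 128 CPM (122 to 134), and luminal cells 25.8 CPM (24.4 to 27.2) and 24.4 CPM (21.2 to 27.9). Macrophages numbered 428 of 17571 cells at L0 and 1508 of 14514 at L20, and over all cells FCGRT was 80.9 CPM at L0 and 328 CPM at L20. Macrophages held 37.2% of the FCGRT UMIs at L0 and 74.8% at L20, and neutrophils 32.6% and 11.5%.

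**Figure D4:**
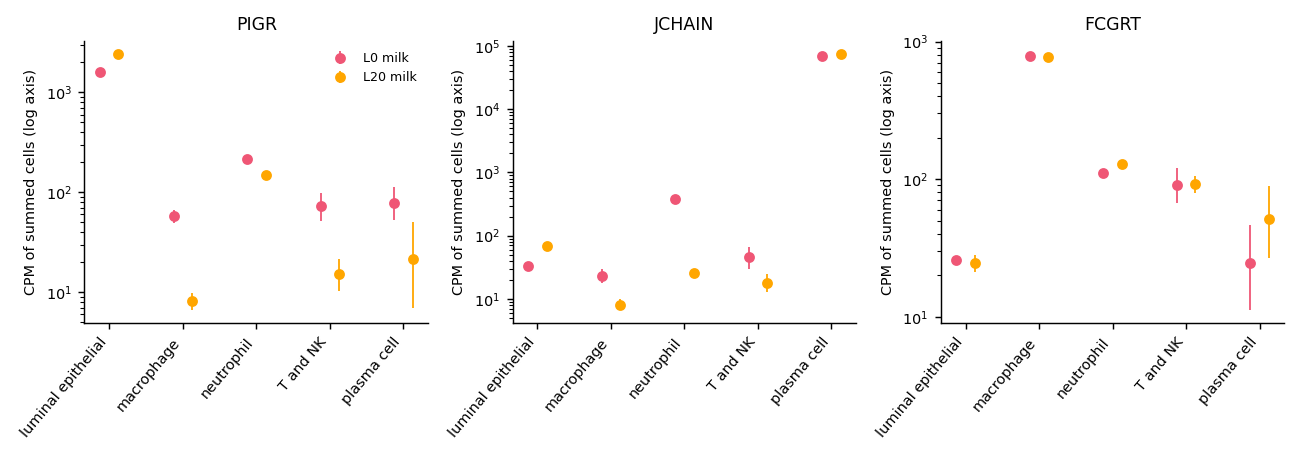
Level in CPM of the 3 genes by cell class in colostrum (L0) and mature milk (L20), 1 library each, with 95% exact Poisson intervals that cover counting error only. PIGR leads in luminal cells (1599 and 2417 CPM), JCHAIN in the plasma cell class (70082 and 74643 CPM) and FCGRT in macrophages (786 and 768 CPM).

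All 3 genes had higher levels in the PI2 section than in the G90 section, with 1 section each and no test. PIGR was 41.2 CPM (95% exact Poisson interval 39.3 to 43.2) at G90 and 103 CPM (98.6 to 108) at PI2. JCHAIN was 1033 CPM (1024 to 1043) and 2331 CPM (2309 to 2354), and FCGRT was 115 CPM (112 to 118) and 207 CPM (200.2 to 214). A PIGR UMI was seen in 26.8% of spots at G90 and 31.3% at PI2, a JCHAIN UMI in 93.0% and 92.2%, and an FCGRT UMI in 56.6% and 61.3%, at median depths of 8062 and 5927 UMIs per spot. Thinned to 1000 UMIs the shares were 3.83% and 7.38% for PIGR, 54.9% and 73.6% for JCHAIN, and 11.04% and 17.8% for FCGRT. A spot can hold several cells, and the section of a stage and its sow cannot be told apart.

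PIGR and JCHAIN levels differed between sets of spots of a section. The most UMIs in 1 spot of the G90 and PI2 sections were 8 and 30 for PIGR, 187 and 363 for JCHAIN, and 10 and 13 for FCGRT. The spots with 1000 UMIs or more, which leaves out 87 spots at G90 and 189 at PI2, were split in each section into 4 sets of nearly equal number. By the share of luminal marker UMIs PIGR went from 28.5 CPM in the lowest set to 61.7 CPM in the highest at G90, and from 26.9 to 236 CPM at PI2. Median depths in these lowest and highest sets were 4701.5 and 8617 UMIs at G90, and 3259 and 9305 UMIs at PI2. The 5% of all these spots with the most PIGR held 34.9% of its UMIs at G90 and 53.9% at PI2. FCGRT in the lowest and highest sets by luminal markers was 125 and 109 CPM at G90, and 214 and 201 CPM at PI2. By plasma cell markers, of which JCHAIN was not one, JCHAIN went from 795 to 1564 CPM at G90 and from 1451 to 3935 CPM at PI2. The lowest of these sets had 0 CPM of the markers and median depths of 4709 (G90) and 3258 UMIs (PI2). The highest had 8481 and 7911 UMIs.

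In the PI2 section PIGR was highest in the spots poorest in JCHAIN. In 4 such sets ordered from low to high JCHAIN, PIGR was 217, 89.3, 70.9 and 59.8 CPM at PI2. At G90 it was 43.8, 41.2, 43.0 and 37.0 CPM, and the counting intervals of neighbouring sets overlapped. Luminal marker counts went along the same PI2 sets from 4711 to 2877 CPM, and stood at 2333 and 2408 CPM at G90.

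**Figure D5:**
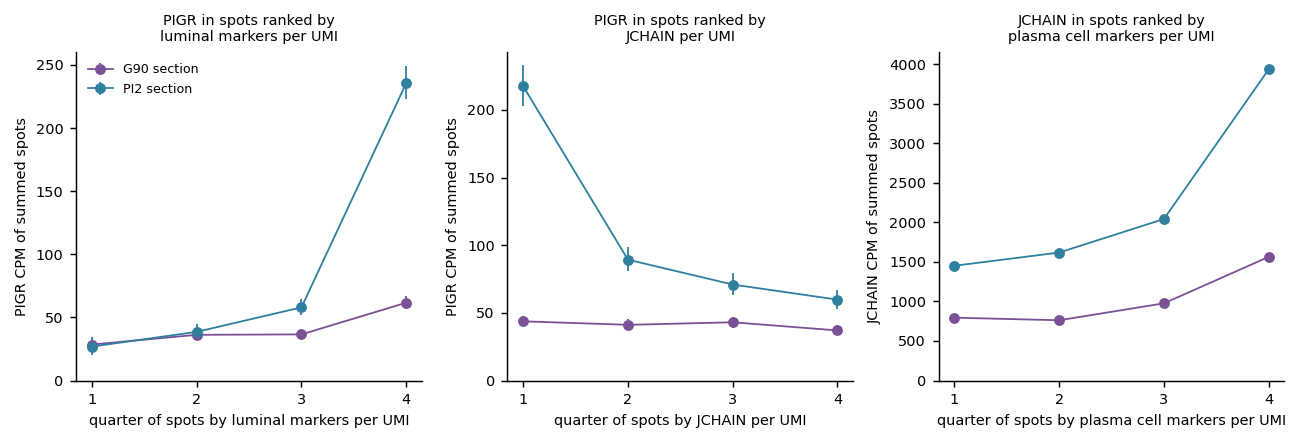
Level in CPM of PIGR and JCHAIN in 4 nearly equal sets of the spots with 1000 UMIs or more (G90 and PI2, 1 section each). Bars are 95% exact Poisson intervals. PIGR is shown over sets ordered by luminal markers and by JCHAIN, and JCHAIN over sets ordered by plasma cell markers. PIGR is highest in the set richest in luminal markers (61.7 and 236 CPM), and at PI2 it goes from 217 to 59.8 CPM from the lowest to the highest JCHAIN set.

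The wider pathway was read from 4 gene lists, none of which had a member that passed the edgeR test in any contrast. The same fit called 0% of all genes over all nuclei in each contrast, and in luminal nuclei 0.00505% from G90 to L0 and 0% in the others, so that the counts of 0 are no result about the lists. Of 19 genes that move or regulate the polymeric receptor, 19 were tested and 0 passed. The medians of their log2 fold changes over all nuclei were 0.44, -0.23, 0.52 and -0.53 in the 4 adjacent contrasts, where all genes tested had medians of -0.17, 0.24, 0.03 and 0.02. Its RAB3D, a GTPase of secretory vesicles, had 4.38 to 20.1 CPM over the glands, and RAB5A, of early endosomes, had 87.0 to 143 CPM. RAB11A, of recycling endosomes, had 18.3 to 84.0 CPM and was highest in lymphatic endothelium (224 ± 112 CPM, luminal nuclei 35.3 ± 16.6 CPM). RAB25, an epithelial relative of RAB11A, had 12.7 ± 5.03 CPM in luminal nuclei and 0 to 5.40 CPM in the other classes.

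Among 15 Fc receptors and antibody binders 10 were tested over all nuclei and 9 in luminal nuclei, and 0 passed, as for all genes over all nuclei (0%). The median log2 fold changes over all nuclei were -0.62, 0.13, 0.19 and 0.36. B2M, the light chain of the neonatal Fc receptor, had 104 to 857 CPM over the glands, with 1489 ± 734 CPM in blood endothelium, 823 ± 262 CPM in macrophages and 366 ± 245 CPM in luminal nuclei. FCER1G, the signalling chain shared by several Fc receptors, had 127 ± 54.5 CPM in macrophages and 5.92 ± 5.33 CPM in luminal nuclei. FCGR1A, an IgG receptor, had 38.1 ± 41.9 CPM in macrophages, and FCER1A, of the IgE receptor, had 0.202 to 1.81 CPM over the glands.

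Of 15 genes of plasma cell homing and survival 14 were tested and 0 passed (0% of all genes over all nuclei), with median log2 fold changes of -0.31, 0.35, 0.38 and 0.25 over all nuclei. CCL28, an epithelial chemokine that draws IgA plasma cells into the gland, had 104 and 174 CPM at G90, 190 and 299 CPM at L0, 9.97 and 14.3 CPM at L20, 78.8 and 4.28 CPM at PI2, and 10.8 and 63.0 CPM at PI7. Its 2 L20 glands lay below all 4 glands of G90 and L0, and the log2 fold change from L0 to L20 was -4.88 (SE 1.28, edgeR adjusted p = 0.193). CCR10, its receptor, had 22.6 ± 32.0 CPM in plasma cells and 0.248 to 1.56 CPM in the other classes. CCL25 had 10.8 to 25.8 CPM over the glands, and CCR9, its receptor, had 27.1 ± 31.6 CPM in plasma cells and 21.4 ± 27.5 CPM in T and NK cells.

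Of 13 genes of antibody making and folding 13 were tested and 0 passed (0% of all genes over all nuclei), with median log2 fold changes of 0.58, -0.15, 0.45 and -0.32 over all nuclei. MZB1 and DERL3, helpers of antibody folding and disposal that were also markers of the plasma cell class, had 614 ± 251 and 203 ± 118 CPM there. XBP1, the transcription factor of the secretory cell programme, had 350.2 ± 130 CPM in plasma cells and 149 ± 71.3 CPM in luminal nuclei. HSP90B1, a chaperone of the endoplasmic reticulum, had 1183 ± 814 CPM in plasma cells and 129 ± 130 CPM in luminal nuclei. The lowest edgeR adjusted p over all lists and contrasts was 0.112, for TLR4 in luminal nuclei from G90 to PI7, a gene named after its value was seen.

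The genes most like each of the 3 were sought by Pearson's r among 9762 genes of at least 10 CPM, as a description. Over the 10 glands, in which 9.07% to 82.6% of nuclei were luminal, PIGR was nearest to PGLYRP1 (r = 0.870), SAT1, SOCS6, LRRC1 and SKIL (r = 0.803). PGLYRP1 was also 1 of the 12 markers of the neutrophil class. JCHAIN was nearest to SPPL2A (r = 0.904), BANF1, BCL10, RAB43 and RNF128 (r = 0.871), and the genes nearest to FCGRT included SCPEP1 (r = 0.989), FMNL3, PLEKHO1 and FUCA2 (r = 0.979). Over the means of 9 classes, PIGR was nearest to GRHL3 (r = 0.990), TSPAN33, SLC44A3, ARHGAP8 and CSN3 (r = 0.983). JCHAIN was nearest there to TXNDC5 (r = 0.981), SEC24A, TXNDC11, PDIA6 and HM13 (r = 0.975), and FCGRT to PLEKHO2 (r = 0.962), DISC1, COX1, ND5 and CD74 (r = 0.940). COX1 and ND5 are mitochondrial genes, which are transcribed outside the nucleus.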

How the data were processed

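Gland nuclei (10 libraries), milk cells (2) and Visium sections (2) were measured as UMI counts per gene, which the authors made with CeleScope (nuclei and cells) and Space Ranger (sections) on Sscrofa 11.1 and deposited unnormalised. The Space Ranger version is 1.2.0 in the submitters' processing notes and 1.3.1 in the matrix headers. The study tested stages with nuclei as replicates, whereas here the sow was the replicate. Of 30071 gene identifiers, 15901 had a symbol in the matrices and 685 took one from the reference tables. No gene with an immunoglobulin heavy or light chain symbol was found, so antibody genes themselves were not analysed here.

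Nuclei and cells with 300 genes or more and a mitochondrial share of UMIs up to 25% (13 genes) were kept. They were put in 1 of 12 classes by at least 2 distinct markers of 12, ties and the rest staying without a class, and luminal nuclei in 3 kinds by 8 markers each. Doublets were not called. Counts were summed per library and class and divided by the UMI total (CPM), or thinned as an expectation to 1000 UMIs per nucleus. Stage contrasts used edgeR 4.0.16 in R 4.3.3 (TMM, filterByExpr, quasi-likelihood F test, Benjamini-Hochberg adjustment, threshold 0.05), with DESeq2 1.42.0 as an alternative. Classes with at least 20 nuclei in at least 6 sows were compared within sows by exact sign-flip tests on log2(CPM + 10) in Python 3.11.15 with scipy 1.17.1. Intervals are exact at 95% and cover counting error only. The edgeR stage test was run on simulated counts. There nearly all 4-fold changes from G90 to L0 were called at a lower spread between sows. They were missed at the common spread of the fit over all nuclei, given alike to every gene. That spread came from all 10 glands and not from G90 and L0 alone. A stage change that did not pass is therefore not shown to be absent.

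The 3 genes, the marker lists and the pathway lists were chosen with earlier results of these data known. The genes named are the 3 members with every value, at most 4 genes per pathway list in list order with at least 100 UMIs, and the 5 genes most like each member, of which 1 is not reported here. FOXP2 and TLR4 were named after their values were seen. Alternatives in scaling, filters, gates, pseudocount, replicates and tests were run.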

Additional observations from a re-analysis of the deposited data

Results flagged for a closer look

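Among 45 groups of 4 to 10 glands checked for a gland far from the others, 1 was found, where chance gives about 1 in 20. FCGRT in lymphatic endothelial nuclei was 0 CPM in PI2 replicate 2, which had 29 such nuclei, against 35.9 to 171 CPM in the other 9 glands. The exact Poisson interval of that 0 reaches 92.3 CPM, above the lowest of the other glands.

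Barcodes outside the class comparisons also carried the 3 genes above the limit that a count of 0 allows. Those without a class entered the sums over all nuclei or cells, and those removed by the filter entered none. Gland nuclei without a class had 130.2 CPM of PIGR, 255 CPM of JCHAIN and 72.3 CPM of FCGRT, and gland barcodes removed by the filter had 259, 112 and 114 CPM. Milk cells without a class had 549.5, 619 and 194 CPM, and milk barcodes removed by the filter had 127, 49.3 and 36.2 CPM, for PIGR, JCHAIN and FCGRT in turn.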

How the results depend on the processing

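Alternatives marked here as added were chosen after the data were seen: the contrast of PI7 with G90, scaling by library size alone, lactation without both L20 glands, and, for classes and kinds of luminal nuclei, the stricter filter and leaving out L20 replicate 2. Over all alternatives 626 stage values kept their direction and side of the threshold (or count within 1.5 times), 36 turned sign, 6 newly passed and 52 counts of genes moved further. For lactation 64 kept both and 14 turned, and for classes 209 kept both, 15 no longer passed, 1 newly passed and 3 turned. In milk 7 values stayed within counting error and 11 moved, and in the sections 8 and 10. JCHAIN from G90 to L0 passed under DESeq2 (2.20 over all nuclei, 1.89 in luminal nuclei) and with only the 2 stages (2.15 and 1.86), and from G90 to PI7 under DESeq2 (2.36 and 2.00). The cause of these gains was not tested. The causes of the turned signs were not tested. FCGRT from G90 to L0 was -0.38 over all nuclei and -0.30 in luminal nuclei by library size alone, and -0.062 over all nuclei with the stricter filter on nuclei (500 genes or more, mitochondrial share up to 5%). PIGR over all nuclei from G90 to PI7 was -0.053 by RLE factors and by DESeq2, -0.013 without a filter on low counts, -0.032 with the stricter filter on nuclei and -0.087 with only the 2 stages. JCHAIN in luminal nuclei from L20 to PI2 was -0.025 by RLE factors and by DESeq2 and -0.026 by library size alone, and FCGRT from PI2 to PI7 there was -0.17 without nuclei of a second class.

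Leaving out 1 gland at a time gave log2 fold changes over all nuclei of -0.11 to 0.11 (FCGRT, L0 against G90), -0.81 to 3.12 (PIGR, PI2 against L20), -0.21 to 1.21 (JCHAIN, PI2 against L20), -0.43 to 0.19 (FCGRT, PI2 against L20), -0.31 to 0.65 (PIGR, PI7 against PI2) and -0.79 to 1.99 (PIGR, PI7 against G90). In luminal nuclei it gave -0.030 to 0.18 (FCGRT, L0 against G90), -0.29 to 0.68 (FCGRT, L20 against L0), -0.78 to 1.18 (PIGR), -0.41 to 0.72 (JCHAIN) and -0.048 to 0.93 (FCGRT) for PI2 against L20, and -0.053 to 2.38 (PIGR, PI7 against G90). The sign of PI2 against L20 over all nuclei turned for each gene without L20 replicate 2 or PI2 replicate 2. In luminal nuclei it turned without L20 replicate 1 or PI2 replicate 1 (PIGR), L20 replicate 2, PI2 replicate 1 or either L0 gland (JCHAIN), and L20 replicate 2 (FCGRT). PIGR from G90 to PI7 turned without G90 replicate 1 in both sets, and over all nuclei also without L20 replicate 1, PI2 replicate 1 or PI7 replicate 2, the last of which turned PIGR from PI2 to PI7 too. FCGRT turned without L20 replicate 1 (L0 against G90 over all nuclei, L20 against L0 in luminal nuclei), and without G90 replicate 1 or L0 replicate 2 (L0 against G90, luminal nuclei). Lactating minus other glands ran from -0.43 to 0.74 and from -0.22 to 0.42 for PIGR over all and luminal nuclei, and from -0.24 to 0.36 and from -0.089 to 0.39 for JCHAIN. For FCGRT they ran from -0.59 (without L20 replicate 2) to -0.086 (without L0 replicate 2) over all nuclei and from -0.53 (without L20 replicate 1) to -0.31 in luminal nuclei. Without both L20 glands the PIGR difference over all nuclei was 0.80. Genes called ran from 0 to 15 (L20 against L0) and 0 to 1 (PI7 against G90) over all nuclei, and from 0 to 156, 0 to 91 and 0 to 67 in luminal nuclei (L0 against G90, L20 against L0, PI7 against G90). The call of 1 luminal gene from G90 to L0 became 0 genes without any single G90, L0, L20 or PI7 gland, and 101 and 156 without PI2 replicate 1 and 2.

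DESeq2 called 397, 1157, 25, 19 and 395 genes over all nuclei and 840, 976, 8, 21 and 888 in luminal nuclei (the 4 adjacent contrasts and PI7 against G90). Without a filter on low counts edgeR called 33, 269, 3 and 71 over all nuclei (L0 against G90, L20 against L0, PI2 against L20, PI7 against G90) and 240, 317 and 381 in luminal nuclei (L0 against G90, L20 against L0, PI7 against G90). With only the 2 stages it called 407 and 32 over all nuclei (L0 and PI7 against G90), and 968, 2 and 321 in luminal nuclei (L0 against G90, L20 against L0, PI7 against G90). In luminal nuclei library size alone gave 0 calls for L0 and 6 for PI7 against G90, and RLE factors, the stricter filter, at least 3 markers and no second class each gave 3 for PI7 against G90.

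The labels number the sows of each stage. Over 10 pairs of libraries with the same number in different stages, deviations from the stage means correlated at -0.490 to 0.341 and 2 pairs exceeded 0.1, so the numbers are not read as pairs. With the replicate block PIGR over all nuclei from L20 to PI2 was -0.15, and the calls in luminal nuclei from G90 to L0 were 0. The block changed no other call.

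Of the class comparisons, 3 of JCHAIN turned: luminal minus lymphatic endothelium was -0.037 without nuclei of a second class and -0.11 with at least 50 nuclei, and luminal minus T and NK cells was 0.030 with at least 3 markers. Without L20 replicate 2, luminal minus plasma cell nuclei was 1.71 for PIGR and -5.80 for JCHAIN, where 6 sows were left, and luminal minus lymphatic endothelium was -1.11 for FCGRT, none of them past the threshold among the luminal tests. There JCHAIN had an adjusted p of 0.0505, at the smallest p that 6 sows allow (exact permutation). The tests chosen after the order was seen held the same JCHAIN comparison, in 6 of 6 sows (exact permutation, adjusted p = 0.0313). They compared only classes already seen to be highest, so this lower adjusted p is no further support. JCHAIN in luminal minus myoepithelial nuclei was -0.56 with at least 3 markers. FCGRT in luminal nuclei passed the threshold against myoepithelial nuclei without a second class (-0.54), and missed it against fibroblasts (-0.45) and lymphatic endothelium (-0.95) with the stricter filter and against lymphatic endothelium with a pseudocount of 1 (-1.09). With at least 50 nuclei hormone-sensing minus secretory nuclei was -1.73 (PIGR) and -0.74 (JCHAIN), and hormone-sensing minus progenitor nuclei was -0.61 (JCHAIN), all past the threshold before. FCGRT in progenitor minus secretory nuclei was 0.15 with at least 3 markers, 0.032 without a second class, 0.17 with at least 50 nuclei and with the stricter filter, and 0.14 without L20 replicate 2, past the threshold in none of them.

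In milk, a filter of 500 genes or more and a mitochondrial share up to 10% gave 1279 and 724 CPM of PIGR, 578 and 538 CPM of JCHAIN over all cells at L0 and L20, 409 CPM of FCGRT over all cells at L20, and at L20 2465 CPM of PIGR in luminal cells, 80823 CPM of JCHAIN in plasma cells and 786 CPM of FCGRT in macrophages. At least 3 markers gave 823 CPM of FCGRT in macrophages at L0, and 2461 CPM of PIGR in luminal cells and 83401 CPM of JCHAIN in plasma cells at L20. In the sections, spots of at least 1000 UMIs held a JCHAIN UMI in 93.9% at G90, and at PI2 a PIGR, JCHAIN or FCGRT UMI in 33.9%, 95.4% and 66.1%. Thinning to 1000 UMIs gave 3.83%, 54.9% and 11.04% at G90 and 7.38%, 73.6% and 17.8% at PI2, since a spot then has fewer UMIs. Depth limits the plasma cell values, which rest on 20 to 72 nuclei a gland, and the lowest classes of FCGRT, where 21 UMIs were behind all plasma cell values.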
